A study of Mus musculus with 31 samples.

Results

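The 10 genes described here write, erase or protect DNA methylation in the early mouse embryo, and they were taken by name from the count table of 31 single 2-cell embryos. All 10 (Dnmt1, Dnmt3a, Dnmt3b, Dnmt3l, Uhrf1, Tet1, Tet3, Dppa3, Zfp57 and Trim28) were among its 20544 gene symbols, and all 10 passed the filter on low counts that left 8571 genes to test. The embryos were made by in vitro fertilization with sperm of 12 to 14-week-old C57BL/6J males and oocytes of superovulated CD1 females 8 to 10 weeks of age, and the labels give every embryo as wild type (WT). For the 15 SER-generated embryos (Sperm Energy Restriction and Recovery), sperm lost motility in medium without glucose and pyruvate, within 15 to 45 min, and were then returned to complete medium. Sperm for the 16 control-generated embryos stayed in complete medium throughout and went through the same centrifugation. Both kinds of sperm were cocultured with oocytes for 4 h, and each embryo was collected 32 h after insemination and made into a Smart-seq3 library of its own. The labels do not say which male, female or batch an embryo came from, so p-values measure the spread between embryos. Per the study both groups were made in several batches. Because the batch of each embryo is not given, no batch term could be fitted. The cauda epididymides of a male were divided between control and SER medium, so embryos of both groups can share a male. Embryos that share a male, female or batch are not independent, while the tests treat each embryo as independent.

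DNA methylation in mammals sits mainly on cytosine in CpG dinucleotides. After fertilization most of the methylation inherited from sperm and oocyte is lost, by oxidation and by dilution through replication, while imprinted regions keep theirs. Dnmt1, with its partner Uhrf1 that recognizes hemimethylated DNA, copies methylation at replication. Dnmt3a and Dnmt3b add it to unmethylated DNA, with Dnmt3l as a cofactor without catalytic activity of its own. Tet1 and Tet3 oxidize 5-methylcytosine, and Tet3 is the member of that family that oocytes supply to the zygote. Dppa3 (also called Stella) protects maternal chromatin from Tet3 and keeps Uhrf1 out of the nucleus. The zinc finger protein Zfp57 binds methylated imprinting control regions and brings in Trim28 (KAP1), a scaffold for repressive enzymes, and both are known as maternal-effect genes.

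The promoters of these genes differ in their own CpG content, and 4 windows are shown, chosen because Zfp57 and Trim28 were shifted in opposite directions in the embryos that stood apart and because Dnmt1 has several transcript starts. Each window runs from 250 bases before to 50 bases after a RefSeq transcript start on GRCm38.p6, 5′ to 3′ on the gene's strand, with CpG in capitals (the letters CG, which read the same on both strands). RefSeq windows were found for 9 of the 10 genes, 18 in all, and Dppa3 had none.
Zfp57, chr17:37000913-37001212, plus strand: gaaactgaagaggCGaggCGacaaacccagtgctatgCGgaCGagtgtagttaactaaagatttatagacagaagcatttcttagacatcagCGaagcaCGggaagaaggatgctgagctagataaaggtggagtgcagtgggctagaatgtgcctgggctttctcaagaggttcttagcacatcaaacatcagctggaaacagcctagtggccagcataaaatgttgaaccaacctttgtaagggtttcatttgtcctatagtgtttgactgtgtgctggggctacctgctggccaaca
Trim28, chr7:13023902-13024201, plus strand: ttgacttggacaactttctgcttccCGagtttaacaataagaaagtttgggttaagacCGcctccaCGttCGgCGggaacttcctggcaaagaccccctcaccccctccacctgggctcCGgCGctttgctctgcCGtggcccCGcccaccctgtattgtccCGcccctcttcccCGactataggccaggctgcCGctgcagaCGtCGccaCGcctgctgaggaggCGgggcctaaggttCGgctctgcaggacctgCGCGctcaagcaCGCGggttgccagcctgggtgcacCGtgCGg
Dnmt1, chr9:20952574-20952873, minus strand: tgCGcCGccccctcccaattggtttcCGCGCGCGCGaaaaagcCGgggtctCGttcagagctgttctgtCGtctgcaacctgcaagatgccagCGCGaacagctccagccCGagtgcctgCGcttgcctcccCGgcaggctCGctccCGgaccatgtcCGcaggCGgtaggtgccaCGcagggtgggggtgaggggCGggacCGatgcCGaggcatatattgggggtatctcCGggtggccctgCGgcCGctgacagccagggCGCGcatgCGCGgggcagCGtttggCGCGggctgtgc
Dnmt1, chr9:20959839-20960138, minus strand: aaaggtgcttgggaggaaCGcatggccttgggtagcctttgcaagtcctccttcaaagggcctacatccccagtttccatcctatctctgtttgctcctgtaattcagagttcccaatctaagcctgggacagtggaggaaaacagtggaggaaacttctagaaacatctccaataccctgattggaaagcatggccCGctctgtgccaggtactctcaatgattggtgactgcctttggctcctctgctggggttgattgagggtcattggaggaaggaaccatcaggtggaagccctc

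The Zfp57 window shown, at its most upstream start, held 6 CpG, and its other windows held 9 and 4. The Trim28 window held 23. Over the 32851 windows of all genes the median was 7 CpG, and 56.4% held at least 6 while 21.5% held at least 23. The most downstream of the Dnmt1 starts held 33 CpG, a number reached by 8.56% of all windows, and its most upstream start held 2. Counts per gene do not separate the starts of Zfp57 or of Dnmt1, so which of them was used in these embryos was not measured. The densest windows were those of Dnmt3a, with 46 and 47 CpG at its upstream starts and 18 at the downstream start, and windows of Dnmt3l held from 3 to 6.

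Library totals lay between 532945 and 2085222 counts in the control group and between 642321 and 3088396 counts in the SER group, whose geometric mean was 1.504 times that of the control group (2-sided permutation test with 100000 resamples, p = 0.0201). Markers of the 2-cell stage were present in both groups: over each group as a whole, all 24 zygotic and all 18 oocyte genes listed had counts. In single embryos, 10 of the 24 zygotic genes had a count in control replicate 4 and 17 in SER replicate 15. In the other embryos 22 to 24 did, and 16 to 18 oocyte genes had a count in each embryo. The summed oocyte list came to 2685 to 11930 CPM (counts scaled to the library's total on genes) in the control group and 1322 to 13039 CPM in the SER group. Of 17 cumulus cell genes 15 had a count over the control group as a whole and 14 over the SER group, Ereg being at 0 in both. Single embryos had a count for 2 (control replicate 12) to 9 (control replicate 5) of these genes. Their sums per embryo were 24.1 to 3641 CPM in the control group and 12.9 to 310.1 CPM in the SER group. The 3641 CPM belonged to control replicate 5. Of 10 sperm genes 8 had a count over the control group as a whole and 10 over the SER group. Their sums per embryo were 2.23 to 69.2 and 8.54 to 31.7 CPM, and Odf1 and Smcp were at 0 in control-generated embryos. A library here pools a whole embryo, so fewer cells and less RNA per cell cannot be told apart.

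2 embryos, control replicate 4 and SER replicate 15, had the lowest zygotic scores. This score, the mean log2 CPM of 22 tested genes such as those of the Zscan4 and Usp17l families, was 2.09 in control replicate 4 and 2.77 in SER replicate 15. The next lowest embryo scored 4.14, the median was 5.27 and the highest was 6.34. The zygotic genes were not uniformly low in them: Zfp352 had 3.02 and 0.779 CPM, against 51.1 to 559 CPM in the other 29, while Zfp750 had 177 and 399.6 CPM, against 8.10 to 119.6 CPM. Arg2 and Sp110, with 148 and 176 CPM in SER replicate 15, lay within the range of the other 29. By the sum of the zygotic list control replicate 4 was the lowest of the 31 with 380 CPM, and SER replicate 15 with 870.0 CPM lay above control replicate 5 (797 CPM), SER replicate 8 (819 CPM) and SER replicate 9 (835 CPM). Their oocyte-list sums, 11930 and 13039 CPM, were the highest of the 31, the next being 10294 CPM. The oocyte genes were not uniformly high in them either. Btg4 had 6100 and 4964 CPM, against at most 3373 CPM in the other 29, and Bmp15 had 2094 and 2775 CPM, against at most 1475 CPM. Oosp1 had 466 and 94.2 CPM, against 116 to 3983 CPM, and Zp1 had 24.1 and 26.9 CPM, against 4.66 to 99.8 CPM. Results below that rest on control replicate 4 and SER replicate 15 are given with and without them.

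Dppa3 stood far above the other 9 genes, both in CPM and per kilobase of annotated exon. Levels per kb are divided by the merged exons of all transcripts, and since the 5′ reads of a transcript do not grow in number with its length, comparisons between genes are approximate. Its mean level was 3182 ± 1747 CPM per kb (SD, n = 31), the 4th highest of 19983 genes with an exon length. Zfp57 followed with a mean of 177 CPM per kb, Trim28 with 67.7, Uhrf1 with 56.9 and Tet3 with 32.9. Dnmt3l averaged 26.0 CPM per kb, Dnmt1 15.5, Dnmt3a 11.6, Dnmt3b 4.73 and Tet1 4.16. Each gene was thus above at least 64.9% of the genes of the table, the share that lay below Tet1. Only the step from Dppa3 to Zfp57 was clear of the spread between embryos, with Dppa3 above Zfp57 in 30 of 31 embryos and a mean log2 ratio of 4.81 ± 1.40 (SD). The order was less settled between Zfp57 and Trim28 and between Trim28 and Uhrf1, where the higher gene led in 20 of 31 embryos in each case. Dnmt3b and Tet1 could not be ordered, since Dnmt3b was higher in 17 of 31 and the log2 ratio was 0.01 ± 1.70 (SD). The steps in between were seen in 24 to 28 of 31 embryos with mean log2 ratios smaller than or close to their SD. In CPM the means ran in another order below Zfp57 (671), with Tet3 (549) above Trim28 (282) and Uhrf1 (242). Dnmt3a (194) was above Dnmt1 (114), Dnmt3l (77.6), Tet1 (64.3) and Dnmt3b (24.2). Both means of Zfp57 were raised by control replicate 4 (1153 CPM per kb) and SER replicate 15 (1717 CPM per kb). Without these embryos Zfp57 averaged 343 CPM and Tet3 521 CPM. Medians over all 31 were 360 CPM for Zfp57 and 546 CPM for Tet3.

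**Figure D1:**
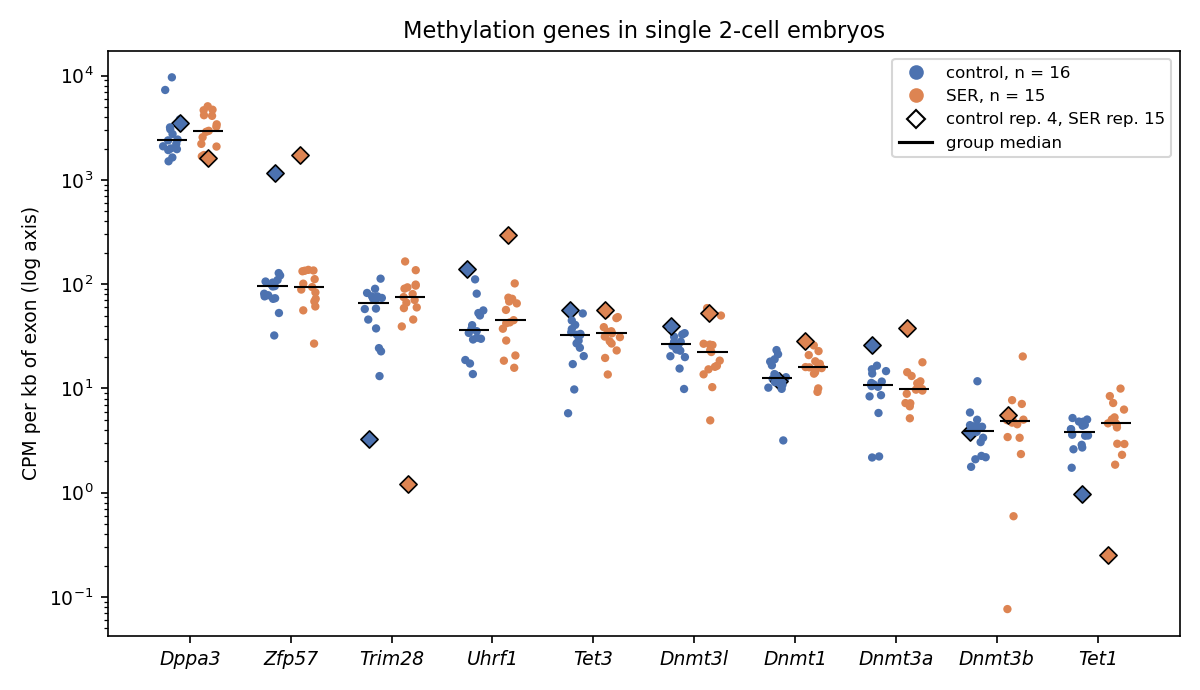
Level of each gene in each embryo, in CPM per kb of exon on a log axis, with 16 control- and 15 SER-generated embryos as points, diamonds for control replicate 4 and SER replicate 15, and a bar at each group median. Dppa3 lies above the rest, and the diamonds lie far above the other embryos for Zfp57 and far below them for Trim28. For Tet1 they also lie below the others, with control replicate 4 near the next lowest embryo.

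The copying of methylation at replication is the work of Dnmt1 and Uhrf1. Dnmt1 (ENSMUSG00000004099, chr9:20907209-20959888 on GRCm38, minus strand, 39 merged exons) had 23.4 to 172 CPM in control-generated embryos with a median of 92.8, and 68.4 to 211 CPM in SER-generated embryos with a median of 118. The groups overlapped over most of their range, and the control median was exceeded by 13 of the 15 embryos made with SER sperm. Mean levels were 101 ± 36.7 CPM (SD, n = 16) and 128 ± 39.3 CPM (SD, n = 15). Of the 10 genes Dnmt1 came closest to a difference between the groups on the log2(CPM + 1) scale, by 0.39 ± 0.20 (SE), with a 2-sided permutation p = 0.0545. Without control replicate 4 and SER replicate 15 this difference was 0.32, with a permutation p = 0.122.
Uhrf1 (ENSMUSG00000001228, chr17:56303321-56323486, plus strand, 18 merged exons) spread more widely. It had 58.5 to 601 CPM in control-generated embryos with a median of 155, and 67.2 to 1255 CPM in SER-generated embryos with a median of 192. Both maxima were the embryos with the low zygotic score, and among the other 29 the highest value was 474 CPM, in control replicate 14. Per kb, Uhrf1 was above Dnmt1 in 30 of 31 embryos with a median ratio of 2.90, the exception being SER replicate 6 at 0.990. The ratio was 12.1 in control replicate 4 and 10.3 in SER replicate 15.

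New methylation is placed by Dnmt3a and Dnmt3b. Dnmt3a (ENSMUSG00000020661, chr12:3806007-3914443, plus strand, 32 merged exons) had 36.2 to 430.0 CPM in control-generated embryos with a median of 181, and 86.1 to 634 CPM in SER-generated embryos with a median of 164. Its lowest values, 36.2 and 37.1 CPM, were in control replicates 1 and 3, and its highest were again in control replicate 4 and SER replicate 15. An antisense gene, Dnmt3aos, shares 133 exon bases with it, and the strand setting of the counting is not given in the sources used here.
Dnmt3b (ENSMUSG00000027478, chr2:153649450-153687730, plus strand, 24 merged exons) was low, with 9.04 to 59.9 CPM in control-generated embryos (median 20.1) and 0.391 to 103 CPM in SER-generated embryos (median 24.9). Both extremes were SER-generated embryos. SER replicate 12 had 1 count in 2559039, which is 0.391 CPM with an exact 95% binomial interval of 0.00989 to 2.18 CPM. SER replicate 13 had 238 counts, 103 CPM with an interval of 90.7 to 117 CPM. Neither library was shallow, and the gap between them is larger than counting error, although reads without a molecular identifier are not independent molecules and such intervals cover counting error only.
The cofactor Dnmt3l (ENSMUSG00000000730, chr10:78041947-78063622, plus strand, 18 merged exons) had 29.5 to 118 CPM in control-generated embryos with a median of 80.5, and 14.8 to 176 CPM in SER-generated embryos with a median of 66.8. Of the 15 SER-generated embryos, 3 were above the control median. For genes other than Dnmt1 and Dnmt3l this number ran from 7 (Dnmt3a and Zfp57) to 11 (Uhrf1). On the log2(CPM + 1) scale Dnmt3l differed by -0.24 ± 0.27 (SE) between the groups, with a 2-sided permutation p = 0.369. Its exons share 67 bases with Aire on the opposite strand. Per kb, Dnmt3l was above Dnmt3a in all but 2 of 31 embryos, although its mean in CPM was lower, and Dnmt3a was above Dnmt3b in 28 of 31.

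Of the enzymes that oxidize 5-methylcytosine, Tet3 (ENSMUSG00000034832, chr6:83362373-83459084, minus strand, 14 merged exons) was the higher. It had 96.6 to 948 CPM in control-generated embryos with a median of 544, and 227 to 946 CPM in SER-generated embryos with a median of 564. Tet1 (ENSMUSG00000047146, chr10:62804570-62908996, minus strand, 18 merged exons) had 15.1 to 80.4 CPM in the control group with a median of 59.1, and 3.89 to 154 CPM in the SER group with a median of 71.4. The lowest value of each group was the embryo with the low zygotic score. Per kb, Tet3 exceeded Tet1 in 31 of 31 embryos with a median ratio of 7.41. The ratio ran from 1.61 in control replicate 3 to 58.1 in control replicate 4 and 225 in SER replicate 15, and reached 30.2 at most among the other 29.

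Among the protectors, Dppa3 (ENSMUSG00000046323, chr6:122626410-122630272, plus strand, 5 merged exons) had 1347 to 8595 CPM in control-generated embryos with a median of 2157, and 1455 to 4536 CPM in SER-generated embryos with a median of 2638. The highest values were 8595 CPM in control replicate 1 and 6503 CPM in control replicate 3. These are the same embryos that were lowest for Dnmt3a, and control replicate 3 was also the lowest of the 31 in CPM for Dnmt1, Uhrf1 and Tet3. Control replicate 4 had 3152 CPM and SER replicate 15 had 1455 CPM, so Dppa3 put these embryos on either side of the median.
Zfp57 (ENSMUSG00000036036, chr17:37001163-37010635, plus strand, 5 merged exons) had 4364 CPM in control replicate 4, with an exact 95% binomial interval of 4206 to 4525, and 6500 CPM in SER replicate 15, with an interval of 6402 to 6599. In the other 29 embryos it had 102 to 520 CPM with a median of 355. Trim28 (ENSMUSG00000005566, chr7:12999114-13031035, plus strand, 11 merged exons) showed the opposite pattern. It had 9 counts or 13.6 CPM in control replicate 4, with an interval of 6.21 to 25.8, and 13 counts or 5.06 CPM in SER replicate 15, with an interval of 2.70 to 8.66. In the other 29 embryos Trim28 had 54.6 to 687 CPM with a median of 303. Per kb, Zfp57 over Trim28 was 353 in control replicate 4 and 1410 in SER replicate 15, against 0.382 to 8.35 in the other 29. Elsewhere neither gene led: Zfp57 was above Trim28 in 18 of those 29 embryos.

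**Figure D2:**
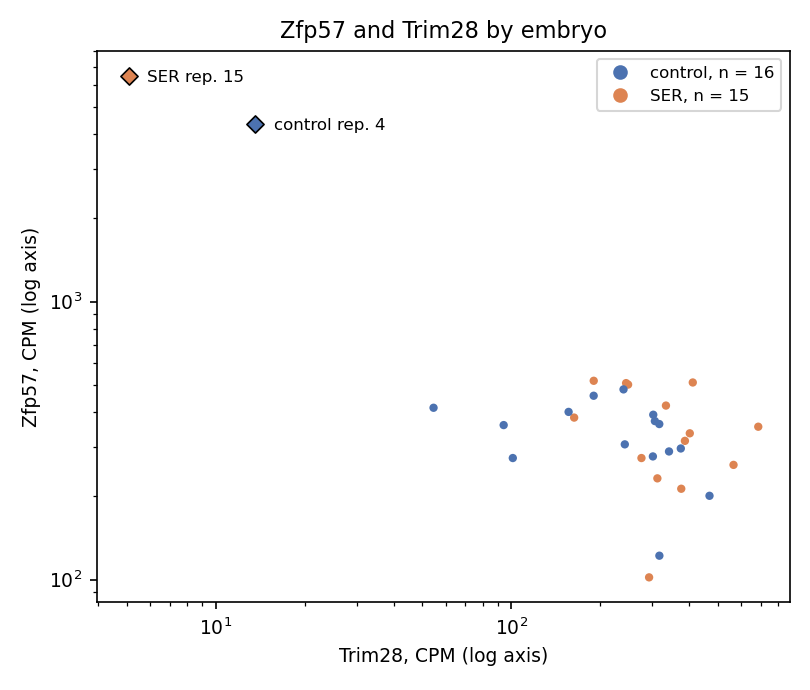
Zfp57 against Trim28 in each embryo, both in CPM on log axes, with 16 control- and 15 SER-generated embryos as points and diamonds for control replicate 4 and SER replicate 15. The diamonds lie at 4364 and 6500 CPM of Zfp57 and at 13.6 and 5.06 CPM of Trim28, while the other 29 embryos form one cloud in which the groups overlap.

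The extremes of the other genes can be read against the whole table. On the TMM-normalized log2 scale SER replicate 15 was the highest of the 31 embryos for 5 of the 10 genes (Dnmt1, Dnmt3a, Dnmt3l, Uhrf1 and Zfp57) and the lowest for Tet1 and Trim28. It was the highest embryo for 13% and the lowest for 11.2% of all 8571 tested genes. Dnmt3l is an exception of scale, since in CPM its highest embryo was SER replicate 12. Control replicate 4 was the highest embryo for Tet3 and lowest for none of the 10, against 5.92% and 14% of all tested genes. It came next to SER replicate 15 for Zfp57, Uhrf1, Dnmt3a, Tet1 and Trim28. Control replicate 3, with a high zygotic score, was the lowest embryo for Dnmt1 and Tet3. It was the lowest embryo for 17.5% and the highest for 12.4% of all tested genes.

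**Figure D3:**
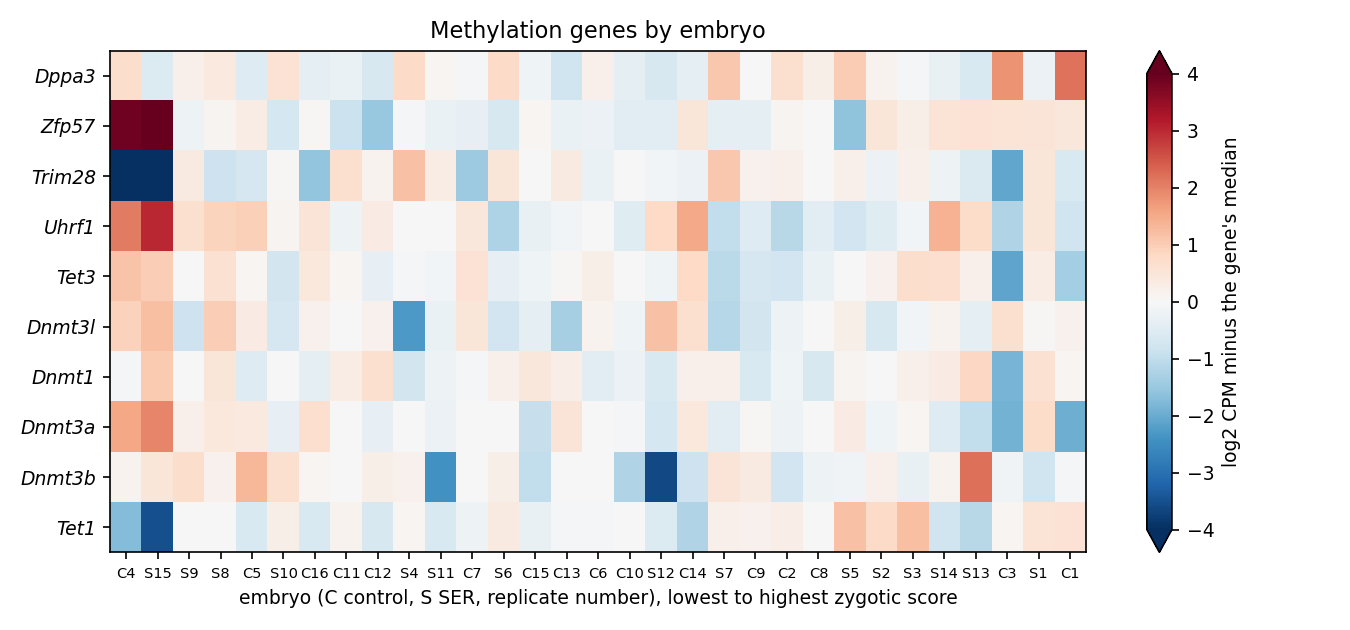
Each gene (rows, in order of level) in each of the 31 embryos (columns, from the lowest to the highest zygotic score), coloured by TMM-normalized log2 CPM minus the gene's median over the 31 embryos, with red above and blue below the median. The leftmost columns, control replicate 4 (C4) and SER replicate 15 (S15), hold the strongest colours for Zfp57 and Trim28, and Dnmt3b is darkest blue in SER replicate 12 (S12).

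The comparison the study was built for is that of SER- with control-generated embryos, and none of the 10 genes differed past the threshold. edgeR's quasi-likelihood test called 0 of 10 at an adjusted p under 0.1, and 0 of all 8571 tested genes (0%), the smallest adjusted p over all genes being 0.178. At an unadjusted p under 0.05 there were 491 genes (5.73%), none of the 10 among them. DESeq2 called 45 genes (0.605%) and again 0 of the 10. The paper reported differentially expressed genes at the same threshold, by DESeq2 after a batch correction that was not repeated here. Other settings called more genes. With 3 estimated clusters of embryos as a batch term 41 of 8571 were called, and by limma voom with quality weights 848 of 8571. Without the filter 504 of the 17803 genes with a count were called. Of the 10 genes these settings called only Dppa3, by limma voom, where 4.56% of tested genes were called higher in SER. Its log2 fold change was 0.47 (limma adjusted p = 0.0874), opposite in sign to edgeR's estimate. The estimates for 8 of the 10 were above 0, with a median log2 fold change of 0.32 against 0.02 over all tested genes.
Trim28 had the largest estimate, a log2 fold change of 0.45 ± 0.35 (SE) with an edgeR adjusted p of 0.935, and its mean level was 239 ± 127 CPM (SD, n = 16) in control- and 327 ± 163 CPM (SD, n = 15) in SER-generated embryos. Its estimate was 0.44 ± 0.24 (SE) without the embryos of low zygotic score. On the log2(CPM + 1) scale without them it was 0.55 higher in SER, with a 2-sided permutation p = 0.0501, against p = 0.450 over all 31. Uhrf1 followed at 0.41 ± 0.36 (SE), and this fell to 0.20 without those embryos and to -0.05 without SER replicate 15 alone. The estimate for Dnmt3b, 0.37 ± 0.39 (SE), rested on SER replicate 13 and was 0.03 without it.
The fold changes of Dnmt1 (0.33 ± 0.21, SE) and Tet1 (0.33 ± 0.30, SE) were alike in size, at edgeR adjusted p-values of 0.918 and 0.936. For Zfp57 the estimate of 0.30 ± 0.54 (SE) turned with single embryos, to -0.89 without SER replicate 15 and to 1.20 without control replicate 4, and was 0.03 ± 0.21 (SE) without both. Its mean level without both was 334 ± 96.1 CPM (SD, n = 15) in control- and 353 ± 130 CPM (SD, n = 14) in SER-generated embryos. Tet3 (0.13 ± 0.24, SE) and Dnmt3a (0.11 ± 0.29, SE) were closest to 0 among those above it. Dnmt3l (-0.09 ± 0.27, SE) and Dppa3 (-0.13 ± 0.27, SE) had estimates below 0, and that of Dppa3 was 0.11 without control replicate 1.
On the log2(CPM + 1) scale, permutation p-values of the other 9 genes were 0.344 or more and 0 of the 10 passed 0.05, before any adjustment for the 10 tests. With SEs between 0.21 and 0.54 the comparison could not resolve small differences in these genes, and a p above the threshold does not show that levels were equal.

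**Figure D4:**
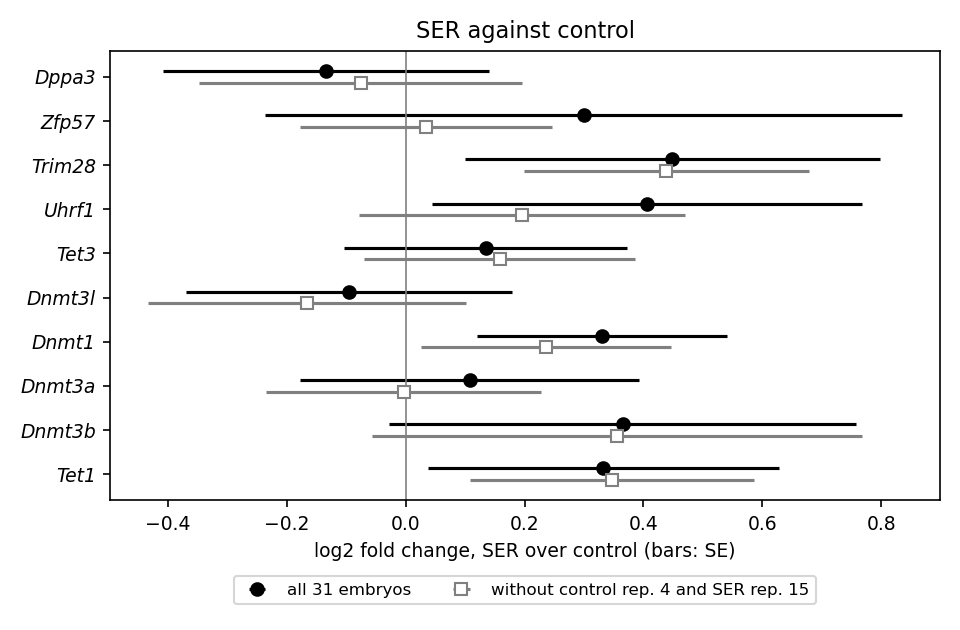
Log2 fold change of SER over control for each gene, from edgeR, with bars of 1 SE, over all 31 embryos (filled) and without control replicate 4 and SER replicate 15 (open). Estimates lie between -0.13 and 0.45 over all embryos, and no gene passed the threshold in either fit.

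Across embryos 6 of the genes went with the zygotic score, and these calls were lost without the embryos with the lowest scores. In edgeR's fit of group and score over all 31 embryos, 4 of the 10 genes fell and 2 rose as the score rose, at an adjusted p under 0.1. Over all tested genes 12.2% fell and 19.4% rose. Per SD of the score (0.93 log2), Zfp57 fell by 0.82 ± 0.11 (SE), with an edgeR adjusted p of 2.92e-06. Uhrf1 fell by 0.60 ± 0.11 (SE), Dnmt3a by 0.51 ± 0.10 (SE) and Tet3 by 0.28 ± 0.10 (SE). The genes that rose were Trim28 with a slope of 0.61 ± 0.25 (SE, edgeR adjusted p = 0.0734) and Tet1 with 0.55 ± 0.15 (SE, edgeR adjusted p = 0.00929). Slopes for Dppa3 (0.18), Dnmt3b (-0.05), Dnmt1 (-0.09) and Dnmt3l (-0.21) did not pass.
Without control replicate 4 and SER replicate 15, 0 of the 10 passed, in either direction, where 1.39% of all tested genes fell and 6.01% rose. The number of genes called over the whole table was 634 in that fit of 29 embryos, 1296 without SER replicate 15 alone, 1500 without control replicate 4 alone and 2714 over all 31. The slope of Zfp57 turned to 0.31 ± 0.15 (SE) and that of Trim28 to -0.12 ± 0.21 (SE). Dnmt3a (-0.34 ± 0.18, SE), Uhrf1 (-0.28 ± 0.21, SE), Tet3 (-0.16 ± 0.19, SE) and Tet1 (0.31 ± 0.18, SE) kept their sign at a smaller size. Dppa3 had the steepest slope of the 10 in that fit, 0.48 ± 0.19 (SE), with an edgeR adjusted p of 0.145. Removing SER replicate 15 alone ended the calls of Trim28 (0.32) and Tet3 (-0.27), and removing control replicate 4 alone did so too (Trim28 0.30, Tet3 -0.22) and brought Dppa3 (0.45) past the threshold. Without SER replicate 8 Trim28 (0.58) missed it as well. The oocyte-list sum was highest in the same embryos. With the oocyte list subtracted from the score, 4193 of 8571 genes and 7 of the 10 were called, Dnmt3l (-0.38) being gained. The part of the oocyte list apart from the zygotic genes was not tested.

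**Figure D5:**
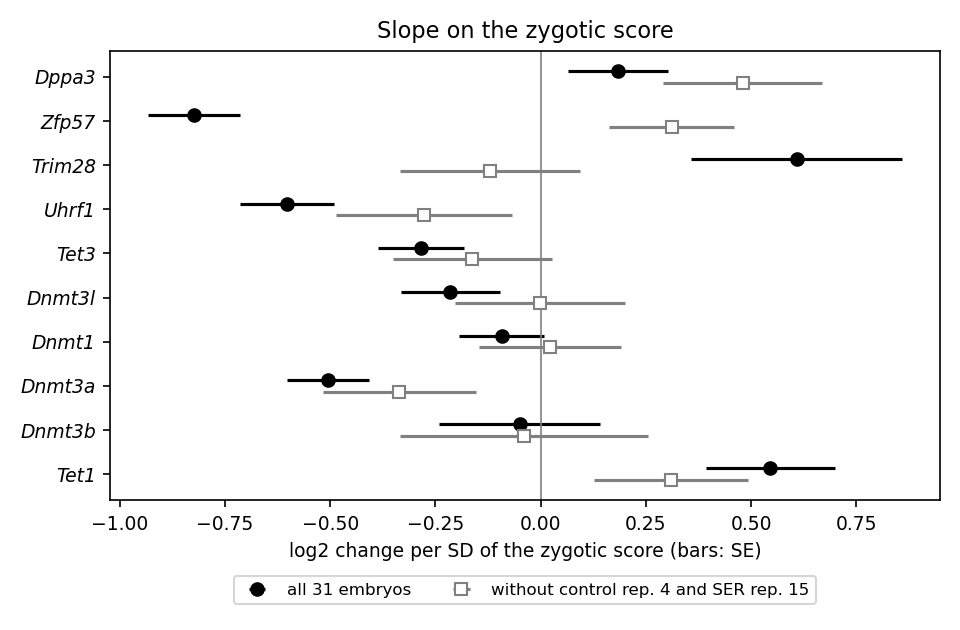
Log2 change of each gene per SD of the zygotic score, from edgeR with bars of 1 SE, over all 31 embryos (filled) and without control replicate 4 and SER replicate 15 (open). Zfp57, Trim28 and, near 0, Dnmt1 change sign between the fits, and the open symbols of all 10 genes missed the threshold.

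Whether embryos of either group differed more among themselves was asked with limma on each embryo's absolute deviation from its group median, in log2 CPM. No gene passed at an adjusted p under 0.1 (0 of 10, and 0% of 8571), and 254 genes had an unadjusted p under 0.05. Of the 10 genes, Dnmt3b deviated by 0.80 in SER- and 0.40 in control-generated embryos on average, a difference of 0.40 ± 0.30 (SE). Dnmt3l deviated by 0.69 and 0.39, a difference of 0.30 ± 0.18 (SE), and Tet1 by 0.74 and 0.41, a difference of 0.33 ± 0.25 (SE), which was 0.18 without the embryos of low zygotic score. For Tet3 the estimate went the other way, with 0.41 in SER- and 0.57 in control-generated embryos. Over all 31 embryos in CPM, the coefficient of variation was lowest for Dnmt1 (34.9%) and highest for Zfp57 (194%). The value for Zfp57, at 671 ± 1305 CPM (SD), rested on control replicate 4 and SER replicate 15. Without them Zfp57 had 343 ± 112 CPM and Dnmt1 had 112 ± 36.3 CPM (SD, n = 29).

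As a description of which genes varied alike, the highest Spearman correlations of log2 CPM over the 31 embryos were taken for each gene. Tet1 went with Utp14b (rho 0.94) and Esf1 (0.92), Uhrf1 with Uvrag (0.90) and Tbc1d22b (0.89), and Trim28 with Surf6 (0.88) and Slc25a25 (0.88). Zfp57 went with Nlrp5 (0.84) and Nlrp9b (0.81), both genes of the oocyte Nlrp family, and Nlrp5 is on the oocyte list. Tet3 went with Axin2 (0.86) and Ctif (0.85), Dppa3 with Npm1 (0.82) and Bnip3l (0.81), and Dnmt3l with Ahsa2 (0.81) and Pecr (0.80). For Dnmt3a (Trio 0.75 and Hivep1 0.71), Dnmt3b (Rbbp5 0.66 and Sdcbp 0.61) and Dnmt1 (Reln 0.63 and Cc2d1b 0.60) the closest genes were less alike. Without control replicate 4 and SER replicate 15 these values changed little, to 0.93 for Utp14b, 0.89 for Uvrag, 0.86 for Surf6 and 0.80 for Nlrp5. The genes of a pair were measured in the same libraries, whose depth and zygotic score differed, and each pair was picked as the highest of all tested genes.

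Other genes of DNA methylation, 40 in the table of which 30 were tested, gave 0 calls for SER against control, with 13 estimates higher and 17 lower and a median of -0.04. The smallest unadjusted p-values belonged to Gadd45g, a gene linked to demethylation through repair, at means of 18.3 CPM in the control group and 7.76 CPM in the SER group (log2 fold change -1.19 ± 0.63, SE), and to Usp7, a deubiquitinase that binds Dnmt1 and Uhrf1, at 219 and 297 CPM (0.39 ± 0.21, SE). Nsd1, which methylates histone H3 at lysine 36, was next at 341 and 429 CPM (0.30 ± 0.25, SE). The highest means were those of Ctcf, which binds unmethylated imprinting control regions, at 735 CPM over all embryos, Nsd1 at 384 and Setd2 at 314. On the zygotic score 6 of the 30 rose and 3 fell over all 31 embryos, where 19.4% of all tested genes rose and 12.2% fell. The 6 that rose were Uhrf2 (1.12), Setd2 (0.58), Smchd1 (0.43), Gadd45b (1.14), Gadd45a (0.98) and Apex1 (0.38), and those that fell were Neil3 (-0.62), Cxxc1 (-0.47) and Ung (-0.28). Without control replicate 4 and SER replicate 15, 3 of the 30 still rose and 1 fell, where 6.01% of all tested genes rose and 1.39% fell. Uhrf2 rose by 0.75 ± 0.19 (SE), Setd2 by 0.67 ± 0.19 (SE) and Gadd45b by 0.96 ± 0.33 (SE). Mbd3, which binds DNA in the NuRD complex, fell by 0.62 ± 0.21 (SE). Uhrf2, a paralog of Uhrf1, thus had a slope above 0 where that of Uhrf1 was below 0, and the difference between them was not tested.

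The genes that supply S-adenosylmethionine, the methyl donor, numbered 22 in the table and 16 tested, with 0 calls for SER against control, a median of -0.04 and 7 estimates higher against 9 lower. Adk, which clears adenosine from the cycle, averaged 66.0 CPM in the control group and 42.2 CPM in the SER group (log2 fold change -0.72 ± 0.31, SE, unadjusted p = 0.0253, edgeR adjusted p = 0.798). Mat2a, the enzyme that makes S-adenosylmethionine, had 269 and 401 CPM (0.56 ± 0.31, SE), and Tyms, which makes thymidylate, 49.9 and 36.9 CPM (-0.56 ± 0.43, SE). The most abundant were Mat2b, the regulatory subunit of that enzyme, at 1009 CPM over all embryos, Mthfd2 at 808 and Mat2a at 333. With the zygotic score 5 of 16 rose and 0 fell, where 19.4% of all tested genes rose and 12.2% fell. Among those that rose were Shmt1 (1.05), Bhmt2 (0.82), Tyms (0.76) and Mat2a (0.62). Without the embryos of low score only Tyms passed, at 0.87 ± 0.29 (SE), where 6.01% of all tested genes rose and 1.39% fell.

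Imprinted genes, of which some have control regions bound by Zfp57 and Trim28 and others, such as Jade1, are imprinted without DNA methylation of that kind, numbered 45 in the table and 20 tested, with 0 calls for SER against control, 10 estimates higher and 10 lower and a median of -0.02. The smallest unadjusted p-values were those of Mcts2 (log2 fold change -0.76 ± 0.50, SE), Phlda2 (-0.77 ± 0.55, SE) and Cdkn1c (-0.62 ± 0.45, SE). Jade1 at 160.3 CPM, Gnas at 94.2 and H13 at 90.0 were the most abundant. H13 had 219 CPM in control replicate 4 and 495 CPM in SER replicate 15, and its partner Mcts2, which lies within an intron of H13, had 0 and 0.389 CPM there. In the other 29 embryos H13 had 3.85 to 223 CPM and Mcts2 3.91 to 151 CPM. Jade1 was low in the same embryos, with 3.02 and 1.56 CPM against 50.7 to 375 CPM in the other 29. On the zygotic score 3 of the 20 rose, Mcts2 (1.38), Phlda2 (0.92) and Usp29 (0.48), and 3 fell, H13 (-0.64), Gnas (-0.46) and Blcap (-0.36). Of all tested genes 19.4% rose and 12.2% fell. Without control replicate 4 and SER replicate 15, Usp29 (1.28 ± 0.34, SE) and Mcts2 (1.07 ± 0.29, SE) rose and none fell, where 6.01% of all tested genes rose and 1.39% fell. These counts carry no allele information, so parental expression of the imprinted genes was not measured.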

How the data were processed

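RNA of 31 single 2-cell embryos was measured by Smart-seq3. Per the labels and the study's methods, the authors aligned reads with STAR to mm10, removed duplicates with UMI-tools and Picard and counted reads per gene with featureCounts, and the deposited values are whole-number counts, taken as they stand before the batch correction (ComBat-seq) and DESeq2 test of the study. Versions, annotation and strand setting are not given in the sources used here. The members and gene lists were chosen with earlier results of these data known.

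Groups and replicate numbers came from the labels. Counts were compared with edgeR 4.0.16 (R 4.3.3), quasi-likelihood test, TMM, filterByExpr (minimum count 10, minimum total 15) and Benjamini-Hochberg adjustment over 8571 genes, with calls at an adjusted p under 0.1. The SE is the log2 fold change over the square root of F. The zygotic score was tested with group as a covariate, and the spread with limma 3.58.1. CPM uses the library's total count, and group means of log2(CPM + 1) were compared by permutation tests (scipy 1.17.1). Binomial intervals are Clopper-Pearson at 95%. Depth, 532945 to 3088396 counts, limits the precision of low values. Exons came from GENCODE vM21 (GRCm38), where 19983 symbols matched 1 gene, and promoters from RefSeq. Alternatives were other size factors, no filter or a stricter filter of 10 counts in 15 embryos, DESeq2 1.42.0, limma voom with quality weights, 3 clusters estimated over the 1000 genes that varied most, library size or zygotic score as a covariate, thinning to 532945 counts, the replicate number as a block, other scores, single groups, pseudocount 0.1, CPM without logs and leaving out each embryo. Leaving out control replicate 4 and SER replicate 15 in the group comparisons was added after seeing the data. No libraries were identical, and the closest pair of a group had a chi-square of 4.40 per degree of freedom. The fits were tested on simulated data.

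Named were the 10 members throughout, of each other list the 3 genes with the smallest p for SER against control and the 3 with the highest mean CPM, list genes past the threshold (1 of them is not reported here), and the 2 genes most correlated with each member. H13 and Jade1, and zygotic and oocyte genes named in single embryos, were picked out after their values were seen.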

Additional observations from a re-analysis of the deposited data

How the results depend on the processing

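For SER against control edgeR called 0 of 8571 genes. The count was 504 of 17803 without the filter and 45 of 7436 by DESeq2. It was 848 of 8571 by limma voom with quality weights and 41 of 8571 with 3 estimated clusters as a batch term. Under the other alternatives 0 genes were called. None of the 10 genes was called under any of them but Dppa3 by limma voom, at 0.47 with an adjusted p of 0.0874, the range of its adjusted p over the alternatives being 0.0874 to 0.999. Signs turned with limma voom for Dnmt3a (-0.028), Dnmt3b (-0.066), Uhrf1 (-0.050), Tet3 (-0.048) and Dppa3 (0.47), with library size as a covariate for Zfp57 (-0.42), and without control replicate 4 and SER replicate 15 for Dnmt3a (-0.0028). With each embryo left out in turn 0 genes were called, and estimates ran from -0.16 to 0.27 for Dnmt3a, from -0.21 to 0.11 for Dppa3, from -0.052 to 0.64 for Uhrf1 and from -0.89 to 1.20 for Zfp57. Of the 8571 tested genes the slope on the zygotic score called 2714. In SER-generated embryos alone it called 159 of the 8571, with 1 of the 10 genes. Without the embryos farthest from the median score it called 634 of the 8571 and 0 of the 10. With the oocyte list subtracted from the score it called 4193 of the 8571 and 7 of the 10. Leaving out each embryo gave 1296 (without SER replicate 15) to 3319 (without SER replicate 13) of the 8571 and 4 to 6 of the 10. Slopes turned without the farthest embryos for Dnmt1 (0.022), Zfp57 (0.31) and Trim28 (-0.12) and in SER-generated embryos for Dnmt3b (0.094), and ran from -0.13 to 0.0100 for Dnmt1 and from -0.25 to 0.0034 for Dnmt3b with single embryos left out. In the spread, 0 genes were called under each alternative and 0 to 1 with single embryos left out, where differences ran from -0.11 to 0.020 for Dnmt1, from -0.20 to 0.0024 for Dnmt3a, from -0.15 to 0.013 for Dppa3, from -0.36 to 0.19 for Trim28, from -0.058 to 0.21 for Uhrf1 and from -0.15 to 0.33 for Zfp57. Trim28 turned to 0.0058 with thinned counts. In CPM, Dnmt3b turned with pseudocount 0.1 (-0.092), TMM scaling (-0.019), thinning (-0.079) and without control replicate 4 and SER replicate 15 (-0.031), Tet1 with thinning (-0.059) and Dppa3 without logs (-64.8 CPM). The causes of these shifts were not tested.

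The labels do not say whether the replicate numbers pair the embryos. Deviations of the 15 same-numbered pairs correlated from -0.37 to 0.49, with a median of 0.11 and 8 over 0.1. Of 15 SER-generated embryos 2 correlated best with their own number. Such correlations cannot show whether same-numbered embryos, or blocks of neighbouring numbers, shared a male or batch. The fit with the number as a block called 1625 genes for the slope and 0 for SER against control, with 6 and 0 of the 10 genes, Dnmt3l gained and Tet3 lost for the slope. Dppa3 (0.042, SER against control) and Trim28 (0.033, spread) changed sign under the block. Depth limits low values such as Dnmt3b and Tet1 most.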
